A study of Mus musculus with 12 samples.

Results

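The macrophages described here came from mouse tracheas and were chosen by 2 groups of transcripts. A cell had at least 3 unique molecular identifiers (UMIs, counted RNA molecules) of the complement genes C1qa, C1qb and C1qc together, and at least 3 of Lyve1, Folr2, Cd163, Cd209f, Cd209g and Fcna together. These 6 genes are called the Lyve1 set below, and the cells Lyve1-set cells. There were 1401 of them among 8051 trachea cells and 12630 cells of the whole series: 1188 in native trachea and 213 in tracheal allografts. In native trachea they were 65.7% of the 1808 C1q-positive cells (exact 95% interval 63.5 to 67.9), and in the allograft 10.2% of 2084 (8.95 to 11.6). The remaining C1q-positive cells, 620 native and 1871 allograft, were the reference in each tissue.

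The study profiled mononuclear phagocytes in the airway fibrosis that follows transplantation, with droplet single-cell RNA sequencing of native trachea, of tracheal allografts and of spleen. The labels name 4 samples for each source, but each source was deposited as 1 matrix whose barcodes carry no sample of origin. The 2 tracheal groups are therefore 1 pooled library each, no test between groups was possible, and no p-value is given. Intervals on levels and folds cover counting error only. The labels give the native cells no treatment, and give for neither group a strain, sex, age or time after transplantation. For the allograft they do not say which cells came from the donor and which from the host. Both tracheal groups are labelled as mesenchymal progenitors, whereas the cells described here carried the macrophage genes Adgre1 and Csf1r, with Adgre1 at 576 CPM (UMIs per 1000000 UMIs of a group of cells) in native and 777 CPM in allograft Lyve1-set cells.

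Resident macrophages live in the connective tissue and around the vessels of most organs, where they take up dying cells, haemoglobin, iron and modified proteins. Many are seeded early in life and renew in place, while others are replaced from blood monocytes. Across several tissues, a population with Lyve1, Folr2 and Cd163 and little MHC class II lies beside a population with high MHC class II, the molecules that present antigen to helper T cells. Lyve1 is a hyaluronan receptor that lymphatic endothelium also carries. Folr2 is a folate receptor, Cd163 takes up haemoglobin bound to haptoglobin, Cd209f and Cd209g are lectins of the DC-SIGN family, and Fcna (ficolin A) is a lectin that starts the lectin pathway of complement.

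The genes of the set lie at 5 places in the genome (mm10, GENCODE M21). Fcna lies on chromosome 2 (25624666 to 25628030, minus strand) and Cd163 on chromosome 6 (124304656 to 124330527, plus strand). Chromosome 7 holds Folr2 (101839988 to 101857194, minus strand) and Lyve1 (110850607 to 110863239, minus strand). Cd209f (8:4102787 to 4105835, minus strand) and Cd209g (8:4134098 to 4137707, plus strand) are neighbours of opposite strand on chromosome 8. The promoters of this pair are shown because the 2 transcripts were the pair that varied together most closely from cell to cell, as described further on. Each runs from 250 bases before to 50 bases after the RefSeq start (GRCm38.p6), 5′ to 3′, with the longest run of bases that both share in capitals. Cd209f is read from chr8:4105715-4106014 on the minus strand and Cd209g from chr8:4134486-4134785 on the plus strand.
Cd209f: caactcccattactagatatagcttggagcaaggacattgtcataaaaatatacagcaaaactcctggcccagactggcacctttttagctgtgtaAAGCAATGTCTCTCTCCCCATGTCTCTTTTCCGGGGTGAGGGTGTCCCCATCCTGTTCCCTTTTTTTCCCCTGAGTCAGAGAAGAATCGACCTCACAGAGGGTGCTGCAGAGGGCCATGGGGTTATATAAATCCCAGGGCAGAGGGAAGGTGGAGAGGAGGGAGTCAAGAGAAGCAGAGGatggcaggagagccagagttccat
Cd209g: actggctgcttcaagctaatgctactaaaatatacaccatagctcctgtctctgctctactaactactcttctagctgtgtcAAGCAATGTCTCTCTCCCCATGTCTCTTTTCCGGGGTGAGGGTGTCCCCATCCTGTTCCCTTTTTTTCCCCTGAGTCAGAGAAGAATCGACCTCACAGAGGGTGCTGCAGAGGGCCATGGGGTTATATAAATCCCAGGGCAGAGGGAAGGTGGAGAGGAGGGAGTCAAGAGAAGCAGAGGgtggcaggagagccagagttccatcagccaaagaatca
The shared run was 180 bases long, at positions 97 to 276 of the Cd209f and 83 to 262 of the Cd209g window. In a global alignment the 2 windows were identical in 260 of 320 columns (81.2%), against 47.0% for Cd209f with Cd163 and 47.2% for Cd209g with Cd163. Only these promoter windows were compared, and the likeness of the transcripts was not examined. Whether reads of Cd209f and Cd209g could be confused in the authors' counting is therefore not known, and their separate levels carry that uncertainty.

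The Fcna promoter is shown as the one window, among those of the set in the RefSeq table (Lyve1 was not searched), with matches to both short motifs (chr2:25627925-25628224, minus strand). Capitals mark the core of the binding motif of PU.1 (GAGGAA, or TTCCTC on the other strand) and the half-site bound by MAF factors (TGCTGA, or TCAGCA on the other strand). PU.1 and MAF are transcription factors of macrophages.
Fcna: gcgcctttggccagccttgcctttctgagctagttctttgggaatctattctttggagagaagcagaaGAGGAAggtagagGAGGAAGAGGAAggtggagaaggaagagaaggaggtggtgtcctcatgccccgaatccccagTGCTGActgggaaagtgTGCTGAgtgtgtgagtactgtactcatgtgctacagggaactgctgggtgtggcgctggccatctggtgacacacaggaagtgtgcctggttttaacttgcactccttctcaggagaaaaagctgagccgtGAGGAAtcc
It held 4 matches to the PU.1 core and 2 to the MAF half-site. Each of the 2 Folr2 windows held 0 and 1, and those of Cd163, Cd209f and Cd209g held 0 of both. Of the 32851 mouse promoter windows of this length in the RefSeq table, 28.3% held the PU.1 core and 19.5% the MAF half-site. A match describes these letters and is no evidence of binding.

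The 6 genes chose the cells, so their levels are a description. Levels are given in CPM of the UMIs summed over a group of cells, and these 3′ counts are not divided by gene length. Lyve1 was at 605 CPM in native (95% Poisson interval 588 to 623) and at 60.0 CPM in allograft Lyve1-set cells (48.6 to 73.3). Folr2 was at 1225 CPM in native and 654 CPM in allograft Lyve1-set cells. Folr2 was thus the gene of the set with the smallest gap between the tissues. Cd163 was at 352 and 68.1 CPM, and Cd209f at 507 and 50.6 CPM. Cd209g was at 208 and 19.999 CPM, and Fcna at 235 and 41.9 CPM. Other C1q-positive cells, which could hold at most 2 UMIs of the set each, had 6.34 CPM of Lyve1 in native trachea and 0.262 CPM in the allograft.

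**Figure D1:**
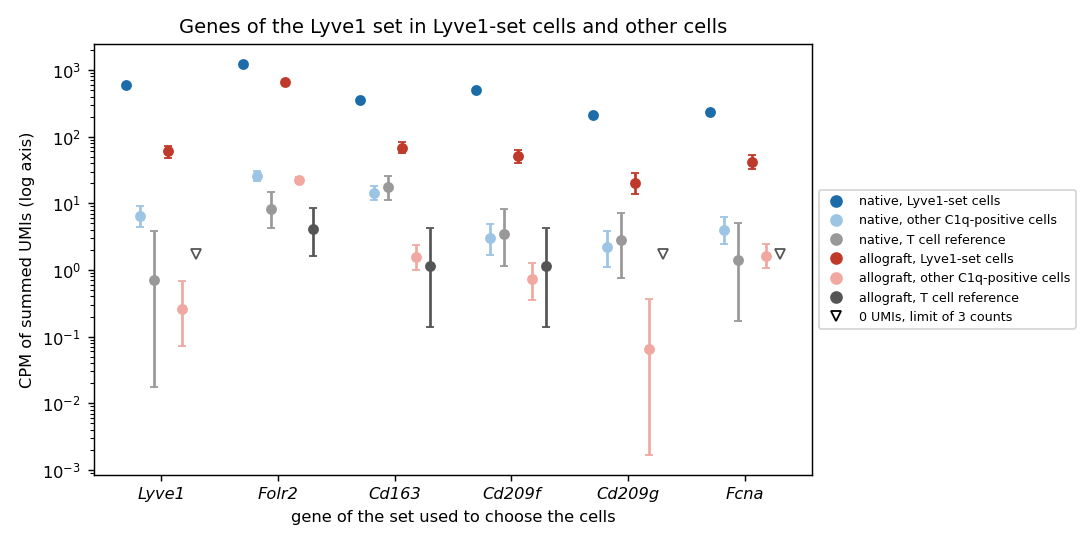
Level of each gene of the Lyve1 set (CPM, log axis, 95% Poisson intervals) in Lyve1-set cells, other C1q-positive cells and T cells of native trachea and allograft; open triangles mark the upper limit where no UMI was found. The gap between native and allograft Lyve1-set cells is small for Folr2 (1225 and 654 CPM) and about 10 times for Lyve1 (605 and 60.0 CPM).

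Droplets also hold RNA released by other cells, and T cells, which should lack these genes, show how much. Lyve1 had a UMI in 72.9% of native Lyve1-set cells and in 0.495% of 202 native T cells, whose median depth was 4524 UMIs. Folr2 had a UMI in 95.9% of native Lyve1-set cells and 5.94% of those T cells. In the allograft, Lyve1 had a UMI in 17.4% of Lyve1-set cells and 0 UMIs in 353 T cells (limit 1.74 CPM), whose median depth was 3993 UMIs. The rule itself sets the chosen cells above the T cells, so these values only show the background. Thinning every cell to 1500 UMIs before applying the rule left 765 of 1626 native (47.0%) and 74 of 1771 allograft C1q-positive cells (4.18%).

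The combination of genes in a cell differed between the tissues. Among native Lyve1-set cells, 72.8% (865 of 1188) carried 3 or more of the 6 genes, against 18.3% (39 of 213) in the allograft. Folr2 was the one gene of the set detected in 66 native (5.56%) and 113 allograft Lyve1-set cells (53.1%). Lyve1 and Cd163 were both detected in 501 native (42.2%) and 7 allograft cells (3.29%). All 6 genes were detected in 141 native cells (11.9%) and in 0 of 213 allograft cells, which allows a share of up to 1.72%. A cell with fewer than 6 UMIs of the set cannot hold all 6 genes. The median was 15 UMIs of the set in native and 5 UMIs in allograft cells. The number of genes per cell thus depends on the number of these UMIs, and the 2 were not separated. Folr2 supplied 39.1% of the set's UMIs in native and 73.1% in allograft Lyve1-set cells. Most native cells thus carried Lyve1 or Cd163, the markers that a Lyve1 and Cd163 macrophage is named for. The rule chose the cells by these genes, so this describes the cells and does not test the name. In the allograft 69.0% of the chosen cells (147) carried neither Lyve1 nor Cd163, against 12.8% (152) in native trachea, so the allograft cells are called by the rule and not by that name.

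**Figure D2:**
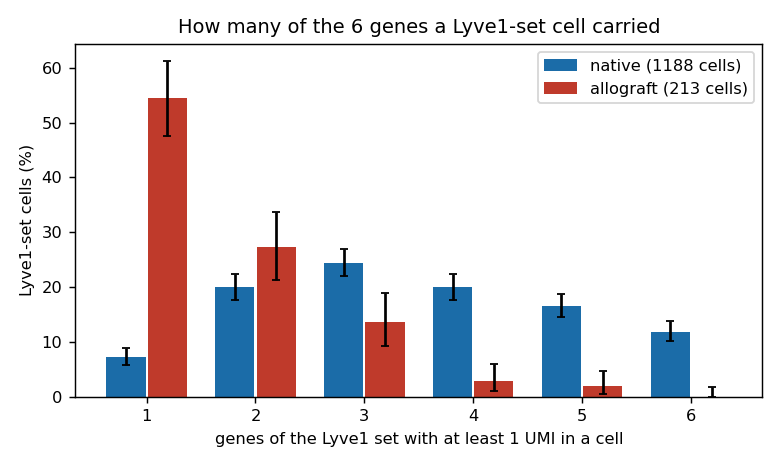
Percent of Lyve1-set cells of native trachea (1188 cells) and allograft (213 cells) that carried UMIs of 1 to 6 genes of the set (bars start at 0; exact 95% binomial intervals). A single gene was found in 7.24% of native and 54.5% of allograft cells.

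Median depth was 6074.5 UMIs in native and 5825 UMIs in allograft Lyve1-set cells, and 7532.5 and 7056 UMIs in the other C1q-positive cells, so the chosen cells were the shallower ones. Their median mitochondrial share was 6.17% in native and 5.53% in allograft cells. The 3 libraries shared between 3 and 5 barcodes in pairs, and 0 Lyve1-set cells were shared. Just inside the threshold, 71 native and 51 allograft cells had exactly 3 UMIs of the set, and just outside it 77 and 92 C1q-positive cells had 2. The median sum was 15 UMIs (quartiles 8 and 28) in native and 5 UMIs (quartiles 4 and 7) in allograft Lyve1-set cells, so most of the native cells lay well inside the threshold.

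The first comparison asked how the native Lyve1-set cells differed from the other C1q-positive cells of the same trachea. Of 11115 genes with enough UMIs to be compared (at least 10 expected in the smaller set), 6.92% were at least 2-fold higher and 9.28% at least 2-fold lower in Lyve1-set cells, and the median gene was 0.09 higher on the log2 scale. The expected number came from the share over both sets together, so genes high in the set with more UMIs entered more easily. This holds for each later comparison too, so the numbers of higher and lower genes are no balance between sets. After thinning to 1500 UMIs, 392 were higher and 354 lower in place of 769 and 1032. Genes that mark resident macrophages in other tissues and were not part of the rule were high in the same cells. Of 28 measured, 23 were at least 2-fold higher and 0 lower, with a median log2 difference of 2.15, or 1.24 after thinning to 1500 UMIs. These cells were chosen by genes known to accompany these, so the count describes the cells and tests nothing.

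Among those genes, F13a1, the A chain of coagulation factor XIII, was at 1152 CPM in native Lyve1-set cells and 170.3 CPM in the other C1q-positive cells (6.76-fold). Gas6, a ligand that bridges dying cells to phagocyte receptors, was at 593 and 73.5 CPM (8.05-fold). Timd4, a receptor for phosphatidylserine on dying cells, was at 144 and 18.4 CPM (7.75-fold). All 3 levels were higher in the Lyve1-set cells. Cbr2, a carbonyl reductase, was at 535 and 130 CPM, and the mannose receptor Mrc1 at 1175 and 328 CPM. The chemokine Pf4 was at 5628 and 1229 CPM, and Selenop, which carries selenium, at 3798 and 827 CPM. Vsig4, a complement receptor, was at 99.98 CPM against 0.793 CPM (112-fold, 49.1 to 464), but its UMIs lay in only 156 of the 1188 cells (13.1%). The further lectin Cd209b was 12.5-fold higher (50.8 and 3.96 CPM), the leukotriene C4 synthase Ltc4s 11.4-fold higher (339 and 29.7 CPM) and the endothelin receptor Ednrb 9.64-fold higher (440.4 and 45.6 CPM).

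Many genes of uptake and some of iron handling were also higher, though the uptake list shares Timd4, Colec12 and Siglec1 with the resident list. Of 21 scavenger and uptake receptors measured, 11 were at least 2-fold higher and 1 lower in native Lyve1-set cells (median log2 difference 1.25, or 0.53 without Fcna in the rule). Stab1, a scavenger receptor of sinusoidal cells and macrophages, was at 452 CPM against 105 CPM. Cd36, which takes up oxidised lipids, was at 900.07 CPM against 318 CPM. Of 17 haem and iron genes, 7 were higher and 0 lower (median 0.75), but their sum was not higher, at 26919 CPM against 27395.8 CPM. Hmox1, which degrades haem, was at 1478 CPM against 530.03 CPM (2.79-fold), and Blvrb, which acts on the biliverdin that follows, at 446 CPM against 136 CPM. The transferrin receptor Tfrc was at 37.7 CPM against 7.53 CPM, and the iron exporter Slc40a1 at 22.5 CPM against 2.18 CPM. Import, breakdown and export of iron were all represented among the higher genes. Of 15 complement genes outside C1q, 7 were higher and 2 lower (median 0.82), with C4b at 206 CPM against 32.7 CPM.

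Secreted signals went both ways. Of 23 chemokine genes, 7 were at least 2-fold higher and 6 lower, with a median of 0.00. Ccl8, a ligand for monocytes and T cells, was at 281 CPM in native Lyve1-set cells against 12.3 CPM in the other C1q-positive cells (22.7-fold). Ccl24, which attracts eosinophils, was at 785 CPM against 99.5 CPM, and the monocyte attractants Ccl2 and Ccl7 were at 2411 CPM against 1099.7 CPM and 2649.6 CPM against 799.6 CPM. Cxcl13, an attractant of B cells, was at 173 CPM against 24.8 CPM. The chemokines made by dendritic cells lay the other way. Ccl17 was at 2.32 CPM against 48.2 CPM and Ccl22 at 4.76 CPM against 36.3 CPM. Of 26 cytokine and growth factor genes, 6 were higher and 4 lower; Igf1, a growth factor for many tissues, was at 334 CPM against 90.2 CPM, Pdgfc, a fibroblast mitogen, at 23.3 CPM against 3.96 CPM, and Il1b, an inflammatory cytokine, at 194 CPM against 1139 CPM (5.88-fold lower).

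Of 20 transcription factors of macrophages, 3 were at least 2-fold higher and 1 lower. Maf was at 388 CPM in native Lyve1-set cells and 62.6 CPM in the other C1q-positive cells (6.19-fold), Klf2 at 785 and 289 CPM, and Tfec at 21.6 and 4.96 CPM. The lower one was Irf4, at 37.2 and 81.7 CPM. Genes of macrophage identity differed little: 5 of 18 were higher (median 0.36, or -0.023 with cells carrying markers of other types removed), among them the receptor for colony-stimulating factors Csf1r at 1138 and 439 CPM, while Lyz2 was at 5895 and 5698 CPM.

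Antigen presentation through MHC class II was lower. All 11 measured genes of that list were at least 2-fold lower in native Lyve1-set cells, with a median log2 difference of -1.53 against 0.09 over all genes. The invariant chain Cd74 was at 13704 CPM against 33037 CPM (2.41-fold lower), H2-Ab1 at 4502 CPM against 11800.1 CPM and H2-Aa at 5003 CPM against 11089.9 CPM. MHC class I did not share this: 0 of 14 genes passed 2-fold in either direction (median -0.06). Of 28 interferon-response genes, 2 were higher and 3 lower. Of 12 monocyte genes, 9 were lower and 0 higher (median -1.69), with Ccr2, the receptor of recruited monocytes, at 51.7 CPM against 177 CPM. Of 16 genes described in scar-associated macrophages of fibrotic tissue, 9 were lower and 1 higher (median -1.22), with the elastase Mmp12 at 6.69 CPM against 142 CPM (21.0-fold lower). Of 21 matrix and vessel support genes, 4 were higher and 9 lower (median -0.60). The gelatinase Mmp9 was among the higher ones, at 273 CPM against 37.3 CPM.

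**Figure D3:**
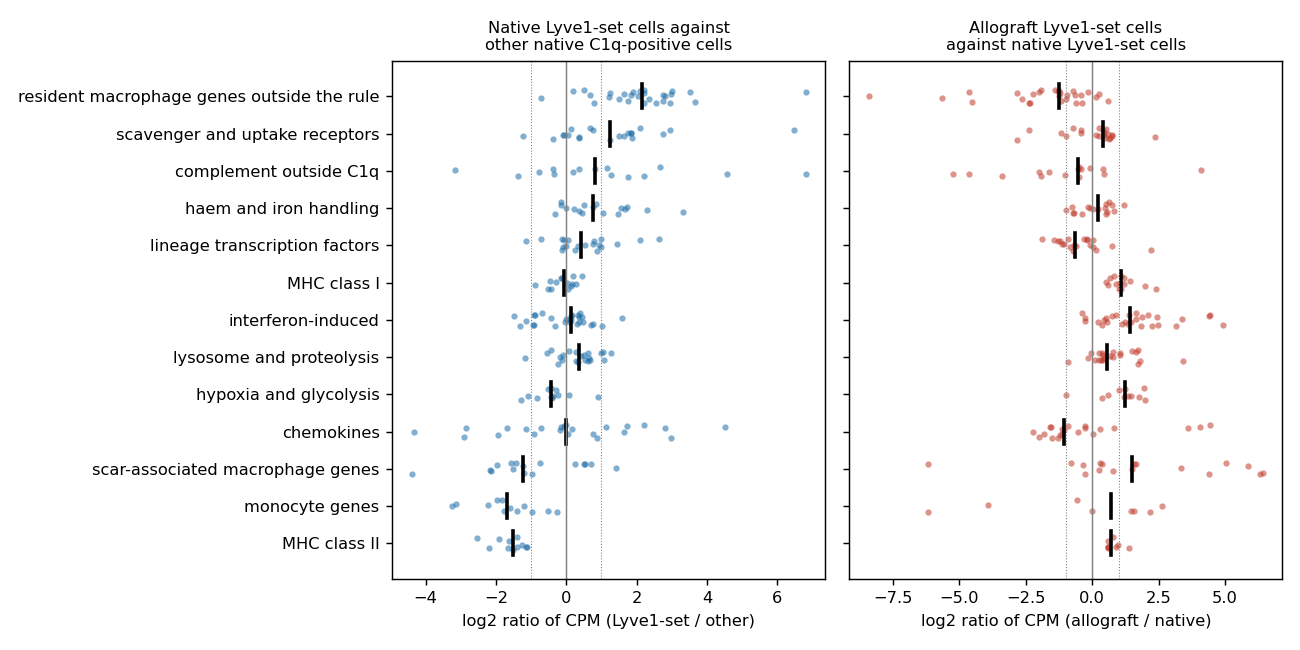
Log2 ratio of CPM for each compared gene (points) of 13 gene lists, in native Lyve1-set cells against other native C1q-positive cells (left) and in allograft against native Lyve1-set cells (right); black lines are list medians, dotted lines mark 2-fold, and genes at 0 UMIs are placed with 0.5 UMI added. The resident list lies high on the left (median 2.15) and low on the right (median -1.25), while interferon-response genes lie near 0 on the left (0.12) and high on the right (1.42).

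Transcripts of other cell types moved with these differences. Genes of fibroblasts summed to 1641 CPM in native Lyve1-set cells, 3593 CPM in the other C1q-positive cells and 3218 CPM in native T cells, and 43.7% of Lyve1-set cells had 3 or more UMIs of them. Gsn alone made 994, 1972 and 1731 CPM of these sums. T cell genes summed to 62.5 CPM in Lyve1-set and 405 CPM in the other cells, and neutrophil genes to 711 and 1366 CPM. Epithelial genes summed to 149 and 3964 CPM, although 10.9% of Lyve1-set and 7.58% of the other cells had 3 or more of their UMIs, so a few cells carried the higher sum. Thyroid genes likewise summed to 21.6 and 501 CPM with 3 or more UMIs in 1.01% and 1.13% of cells. The sum of B cell genes lay the other way, at 292 and 132 CPM and in 27.2% and 12.6% of cells. Ighm alone made 268 and 104 CPM of it, while Cd79b was at 9.14 and 10.7 CPM. Of the 4 B cell genes compared, 1 was at least 2-fold higher (median -0.24). Ighm and Gsn both counted in the removal of cells that follows. With cells carrying 3 or more UMIs of such lists removed, 433 genes were at least 2-fold higher and 213 lower in native Lyve1-set cells, in place of 769 and 1032, and the class II median stayed between -1.71 and -1.35 under every alternative run. Lymphatic endothelium also carries Lyve1, and its genes summed to 18.3 CPM in Lyve1-set cells, of which Pdpn made 17.1 CPM and Prox1 0.772 CPM, with Flt4 at 0 UMIs.

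Native Lyve1-set cells varied widely among themselves in MHC class II. They were ranked by the share of a cell's UMIs from the class II genes and divided into tertiles (3 equal groups, 396 cells each), with shares of 0 to 0.452%, 0.455 to 3.08% and 3.08 to 12.0%. Class II made the ranking, so its own levels are a description: Cd74 was at 756 CPM in the lowest, 9335 CPM in the middle and 30854 CPM in the highest tertile. Cd74 in the highest tertile was thus close to its level in the other C1q-positive cells. Of 9558 genes compared, 1.94% were at least 2-fold higher and 8.93% at least 2-fold lower in the highest than in the lowest tertile.

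The genes of the set did not follow class II in 1 way. Lyve1 was at 866 CPM in the lowest, 685 CPM in the middle and 266 CPM in the highest tertile. Fcna was at 316, 287 and 107 CPM and Cd163 at 402, 397 and 264 CPM in the same order. These 3 were lowest in the highest tertile, while Cd163 was nearly level between the lowest and middle ones. For Fcna, 15 cells described further on held 146 of the 1828 UMIs in native Lyve1-set cells. Alox15, a marker of those cells, had 223 UMIs in the lowest and 0 in the highest tertile. Their part in the Fcna levels was not tested. Cd209f was at 272, 845 and 471 CPM, Cd209g at 111, 317 and 218 CPM and Folr2 at 1309, 1543 and 872 CPM, each with its highest level in the middle tertile. Folr2 was, like the first 3, lowest where class II was highest, while Cd209f and Cd209g were lowest in the lowest tertile. Vsig4 of the resident list was at 234, 47.9 and 3.70 CPM, and Timd4 at 176, 174 and 84.1 CPM. Ccr2 ran the other way, at 19.2, 28.8 and 105 CPM, as did the lectins Clec4b1 (4.62 CPM in the lowest and 89.3 CPM in the highest tertile) and Cd209a (17.4 and 107.8 CPM). Over the resident list, 2 of 28 genes were at least 2-fold higher and 8 lower in the highest tertile (median -0.44, against -0.24 over all genes). Fibroblast transcripts ran with the low end: all 9 measured were lower in the highest tertile, with Gsn, an actin-severing protein, at 1653, 1008 and 295 CPM and the matrix proteoglycan Dcn at 323, 224 and 93.7 CPM. Neutrophil genes ran with the high end: 4 of 8 were higher and 0 lower (median 1.07), summing to 632 CPM in the lowest and 1153 CPM in the highest tertile. The part of both lists in the ranking was not tested.

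**Figure D4:**
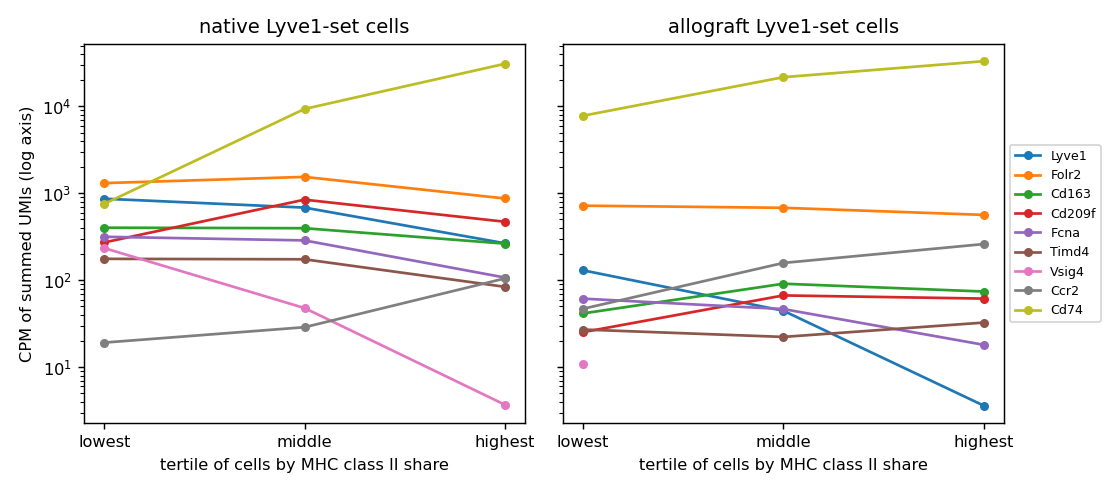
Level of 9 genes (CPM, log axis) in tertiles of native Lyve1-set cells (396 cells each) and allograft Lyve1-set cells (71 each), ordered by the share of UMIs from MHC class II genes; no point is drawn at 0 UMIs. Lyve1 is at 866 CPM in the lowest and 266 CPM in the highest native tertile and at 130 and 3.62 CPM in the allograft, and Ccr2 runs the other way in both.

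From cell to cell, with every cell thinned to 1500 UMIs, the closest pair in the set was Cd209f and Cd209g. Their Spearman correlation was 0.53 over 1162 native and 0.61 over 207 allograft Lyve1-set cells. This is the pair whose promoter windows share the run of 180 bases printed above. Whether confused reads had a part in their correlation was not tested. Lyve1 and the class II share had a correlation of -0.30 in native and -0.34 in allograft cells, and Lyve1 and Folr2 of 0.23 in both. Folr2 and Cd209f reached 0.26 in native and 0.07 in allograft cells. The cells of each tissue share 1 library, the counts are sparse, and choosing the cells on the sum of these genes shapes their correlations, so these values only describe the cells.

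A few native cells carried nearly all of 2 transcripts that stood out. Of the UMIs in Lyve1-set cells, 15 cells held 444 of the 457 of Prg4 (a lubricating proteoglycan) and 1109 of the 1121 of Saa3 (an acute-phase protein). These cells were singled out by Prg4, Saa3 and Alox15 after the values were seen. They were chosen by the rule through Fcna, which 14 of the 15 carried at 684 CPM, while Cd209f and Cd209g were at 0 UMIs and Lyve1 had UMIs in 3 cells. Timd4 was detected in 14 of them, Selp and Icam2 in 12 each, Slpi in 10 and Gata6, a transcription factor, in 8. In the other 1173 cells Prg4 was at 1.72 CPM and Saa3 at 1.59 CPM. Among other C1q-positive cells, 5 native and 74 allograft cells met the same marker rule, and 4 allograft Lyve1-set cells did.

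The second comparison set the allograft Lyve1-set cells against the native ones. Of 8459 genes compared, 4.74% were at least 2-fold higher and 7.64% lower in the allograft cells, with a median of 0.03. For the other C1q-positive cells the same comparison of tissues is given beside it, over 11005 genes of which 7.01% were higher and 7.32% lower. Each tissue is 1 pooled library, and allograft cells are not labelled as donor or host. Tissue, library, cell handling and the genotype of the cells therefore cannot be told apart in either comparison. The resident genes outside the rule were lower in the allograft Lyve1-set cells. Of 28 measured, 17 were at least 2-fold lower and 0 higher (median -1.25), against 11 of 26 lower and 2 higher (median -0.44) in the other C1q-positive cells.

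The levels of these genes were uneven. Vsig4 was at 99.98 CPM in native and 3.75 CPM in allograft Lyve1-set cells. Siglech, a sialic acid receptor of the dendritic cell list and not of this one, was at 87.1 and 2.50 CPM. Timd4 was at 144 and 27.5 CPM, Ltc4s at 339 and 84.4 CPM, Ednrb at 440.4 and 86.9 CPM, and Gas6 at 593 and 245 CPM. The lectin Clec10a was higher in the allograft, at 319 and 482 CPM, and Igf1 was at 334 and 301 CPM. The mannose receptor Mrc1, at 1175 and 881 CPM, and Maf, at 388 and 309 CPM, likewise stayed within 2-fold. The ratio between the tissues thus differed from gene to gene within the list.

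Interferon-response and MHC class I genes were higher in allograft Lyve1-set cells. Of 28 interferon genes, 18 were at least 2-fold higher and 0 lower (median 1.42), and in the other C1q-positive cells 19 were higher and 2 lower (median 1.66). Ly6a, an interferon-responsive surface protein, was at 25.2 CPM in native and 764 CPM in allograft Lyve1-set cells (30.2-fold, 26.0 to 35.4), and at 48.0 and 636 CPM in the other cells. Both kinds of cell were thus higher in the allograft for Ly6a. The chemokine Cxcl9, at 5.53 and 119 CPM, and Gbp4, a guanylate-binding protein, at 1.93 and 41.9 CPM, had large ratios with few native UMIs. Of 14 class I genes, 8 were higher in the Lyve1-set (median 1.07) and 9 in the other cells (median 1.10), with 0 lower in both, including H2-K1 at 1509 and 3417 CPM and the peptide transporter Tap1 at 42.8 and 226 CPM in Lyve1-set cells. MHC class II, in contrast, had a median of 0.70 in Lyve1-set (8 genes, 1 at least 2-fold higher) and -0.36 in the other C1q-positive cells (11 genes, 0 past 2-fold). Cd74 was at 13704 and 20794 CPM in Lyve1-set and at 33037 and 25097.5 CPM in the other cells.

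Ccl8 stood out among the chemokines. It was at 281 CPM in native and 4715 CPM in allograft Lyve1-set cells (16.8-fold, 16.0 to 17.6), and at 12.3 and 2085 CPM in the other C1q-positive cells. Within each tissue it was higher in Lyve1-set cells. Over the list of 21 chemokines, 3 were higher and 11 lower in allograft Lyve1-set cells (median -1.07, or -0.37 with cells carrying markers of other types removed). In the other C1q-positive cells 3 of 23 were higher and 9 lower (median -0.71). In Lyve1-set cells Ccl24 was at 785 and 167 CPM, Ccl2 at 2411 and 825 CPM and Ccl7 at 2649.6 and 1397 CPM, while Ccl5 was at 35.0 and 429 CPM. Complement genes were lower for 7 of 15 in Lyve1-set cells, while in the other C1q-positive cells 4 of 15 were higher and 2 lower. C2 was at 11.7 CPM in native and 0 UMIs in allograft Lyve1-set cells, which is at least 6.25-fold lower against a floor of 3 UMIs. Tcim, a small regulator of transcription and growth, was at 106 CPM in 312 native cells and 0 UMIs in the allograft cells (at least 56.5-fold lower).

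Genes of scar-associated macrophages were higher in the 213 allograft cells as a whole. Of 17 measured, 9 were at least 2-fold higher and 1 lower (median 1.50), and in the other C1q-positive cells 7 were higher and 1 lower (median 0.49). The transmembrane glycoprotein Gpnmb was at 7.33 CPM in native and 633 CPM in allograft Lyve1-set cells (85.6-fold, 66.1 to 115), osteopontin (Spp1) at 24.4 and 811 CPM, the fatty acid-binding protein Fabp5 at 55.7 and 1169 CPM, and Mmp12 at 6.69 and 538 CPM. With Folr2 left out of the rule, 10 of these genes had enough UMIs and a median of -0.25, against 0.57 for the same 10 under the full rule. With Lyve1 and Cd163 alone 9 genes had a median of -0.49 (against 0.37), and after thinning to 1500 UMIs 7 genes had -0.11 (against 0.26). Gpnmb, Spp1 and Mmp12 were too low to be compared under all 3 alternatives. Lysosomal genes were higher for 8 of 22 (median 0.56), with the protease Ctsd at 939 and 3221 CPM. In the other C1q-positive cells 7 of 22 were higher (median 0.54). Cell cycle genes were higher for 8 of 14 (median 1.15, or 0.056 with cells carrying markers of other types removed). The nucleotide synthesis gene Rrm2 was at 3.47 and 20.6 CPM. In the other C1q-positive cells 0 of 21 cell cycle genes passed 2-fold (median 0.24). Fibroblast genes were lower for all 9 measured (median -2.61), against 6 of 9 in the other C1q-positive cells (median -1.25). In Lyve1-set cells they summed to 1641 CPM in native trachea and 279 CPM in the allograft. The lower matrix genes of this comparison, such as Col6a3 (0 UMIs in the allograft cells, at least 32.8-fold lower), moved with them, and their part was not tested.

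Leaving Folr2 out of the rule divided the allograft cells. Of the 213, 45 (21.1%, 15.8 to 27.2) still had at least 3 UMIs of the other 5 genes, as did 975 of 1188 native cells (82.1%, 79.8 to 84.2). The split used those 5 genes, so Lyve1 at 309 CPM in the 45 and 15.5 CPM in the other 168, and Cd163 at 375 and 13.3 CPM, are a description. Folr2 itself was at 1113 and 572 CPM. Of 3306 genes compared, 2.27% were at least 2-fold higher and 4.08% lower in the 45. Resident genes outside the rule were higher for 9 of 20 and lower for 0 (median 0.98), with F13a1 at 1916 CPM against 530.4 CPM, Cbr2 at 585 CPM against 162 CPM, Maf at 609.9 CPM against 255 CPM and Ltc4s at 313 CPM against 43.5 CPM.

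Scar-associated genes lay mostly in the other 168 cells. Of 15 measured, 10 were at least 2-fold lower in the 45 cells and 0 higher (median -1.70). Gpnmb had 7 UMIs in the 45 cells (28.8 CPM) and 1006 UMIs in the 168 (741 CPM). Spp1 was at 28.8 CPM against 950.3 CPM, Fabp5 at 177 CPM against 1346 CPM and Mmp12 at 24.7 CPM against 629.9 CPM. The interferon and class I genes did not divide in this way. Of 22 interferon genes 3 were higher and 1 lower (median 0.17), and of 13 class I genes 0 passed 2-fold (median -0.16). Ly6a was at 812 CPM in the 45 and 756 CPM in the 168 cells, and Ccl8 at 3759 and 4886 CPM. The median depth was 5461 UMIs in the 45 and 6328.5 UMIs in the 168. The same split in native trachea, 975 cells against 213, had 2.82% of 7935 genes at least 2-fold higher and 0.781% lower. Of 28 resident genes 10 were higher and 0 lower (median 0.71), and 0 of 8 class II genes passed 2-fold (median -0.91). Neutrophil genes summed to 448 CPM in the 975 and 1994 CPM in the 213 native cells, and their part in these differences was not tested.

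**Figure D5:**
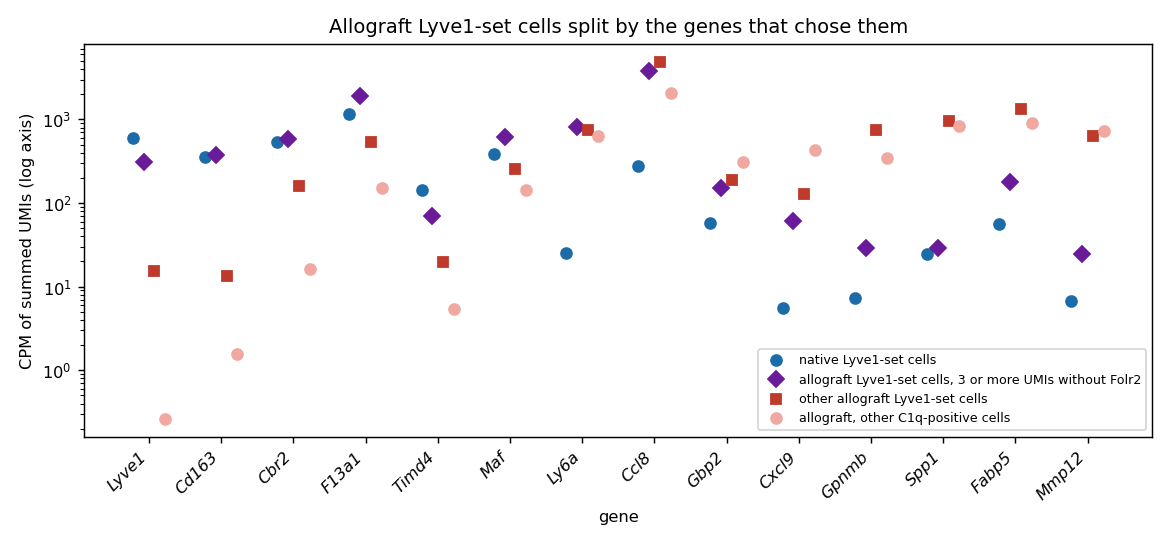
Level of 14 genes (CPM, log axis) in native Lyve1-set cells, in the 45 allograft cells that kept 3 UMIs of the set without Folr2, in the other 168 allograft Lyve1-set cells and in other allograft C1q-positive cells. The 45 cells lie closer to native cells for Gpnmb and Spp1 (both 28.8 CPM) and closer to the other allograft cells for Ly6a (812 CPM).

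The same 45 cells were set against the 975 native cells chosen without Folr2, over 3261 genes of which 3.13% were at least 2-fold higher and 6.72% lower. Resident genes were lower for 11 of 27 and higher for 1 (median -0.53). Cd163 was at 375 CPM in allograft and 414 CPM in native cells, Lyve1 at 309 and 716 CPM, and Vsig4 at 24.7 and 117 CPM. Of 12 interferon genes, 9 were higher and 0 lower (median 1.46), and of 13 class I genes 8 were higher and 0 lower (median 1.08). Ly6a was at 812 CPM against 25.4 CPM and Ccl8 at 3759 CPM against 298 CPM. Scar-associated genes had 1 of 10 higher and 1 lower (median -0.25). Fabp5, 1 of those 10, was at 177 CPM against 49.3 CPM. Among the 7 genes of that list too low to be compared, Gpnmb was at 28.8 CPM against 5.12 CPM, Spp1 at 28.8 CPM against 11.9 CPM and Mmp12 at 24.7 CPM against 7.60 CPM, from 6 or 7 UMIs each in the allograft cells. The interferon, class I and Ccl8 differences between tissues were therefore also present in the cells chosen without Folr2.

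The last comparison set the allograft Lyve1-set cells against the other C1q-positive cells of the allograft. It shares its Lyve1-set cells with the comparison before it. Of 8451 genes, 1.40% were at least 2-fold higher and 4.19% lower, and the median difference was 0.00. The other cells held 15272565 UMIs against 1600051 in Lyve1-set cells, so genes high in the other cells were far more easily compared. Resident genes outside the rule were higher for 12 of 23 and lower for 0 (median 1.04). Cbr2 was at 226 CPM in Lyve1-set and 16.2 CPM in the other allograft cells (14.0-fold, 11.9 to 16.5), Ednrb at 86.9 and 7.99 CPM, F13a1 at 741 and 152 CPM and Gas6 at 245 and 74.1 CPM. Like these 4 genes, Cxcl13 was higher in Lyve1-set cells of both tissues, at 78.7 and 8.71 CPM in the allograft, but its log2 difference there of 3.18 was -3.24 with a set sum of 5 or more UMIs.

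The other lists follow for the allograft, and whether they differed from native trachea was not tested. Of 9 class II genes, 0 passed 2-fold (median -0.29). Interferon genes were higher for 0 and lower for 3 of 28 (median 0.22, or -0.38 after thinning), and scar-associated genes for 0 and 3 of 17 (median -0.05). Monocyte genes were lower for 6 of 11 and higher for 0 (median -1.002), but the median was 0.061 with Lyve1 and Cd163 alone in the rule and 0.26 after thinning to 1500 UMIs. Cell cycle genes were higher for 5 of 16 and lower for 0 (median 0.77, or 0.26 with cells carrying markers of other types removed), with Mcm5, a replication helicase, at 31.9 CPM against 15.1 CPM. Cartilage genes were lower in Lyve1-set cells for all 6 measured (median -4.55, or -3.83 with genes at 0 UMIs set to their bound), summing to 13.7 CPM against 374 CPM. Only 0.939% of Lyve1-set and 2.35% of the other cells had 3 or more UMIs of these genes. Col2a1 alone made 228 CPM of the higher sum. Fibroblast genes were lower for 6 of 7. The part of these transcripts of other cells in the lower genes was not tested.

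Within the allograft Lyve1-set cells, tertiles of 71 cells by class II share (0.0235 to 2.52%, 2.60 to 5.18% and 5.19 to 9.56%) were compared in the same way. Of 5559 genes, 4.82% were at least 2-fold higher and 6.06% lower in the highest tertile. Lyve1 was at 130, 44.6 and 3.62 CPM from lowest to highest tertile, and Ccr2 at 47.0, 158 and 260.5 CPM, the same direction as in native cells. Of 27 interferon genes, 19 were higher in the highest tertile and 0 lower (median 1.30), with Ly6a at 352 CPM in the lowest and 1395 CPM in the highest tertile. Scar-associated genes were lower for 9 of 16 and higher for 1 (median -1.07), and cell cycle genes lower for 8 of 10 (median -1.54). Gpnmb was at 1214 CPM in the lowest and 23.5 CPM in the highest tertile, Spp1 at 1911 and 45.2 CPM and Fabp5 at 2006 and 317 CPM. In the lowest tertile Gpnmb lay in 27 and Spp1 in 25 of the 71 cells. There, 1 cell held 29.5% of the Gpnmb UMIs, and 1 cell held 29.0% of the Spp1 UMIs. In the allograft, then, the tertile with the least class II had the highest summed levels of Lyve1 and also of these scar-associated genes. The split without Folr2, whose rule used Lyve1, placed most Gpnmb and Spp1 UMIs in cells with little Lyve1.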

How the data were processed

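The 3 deposited files hold UMI counts per gene and barcode (31053 genes) that the authors made with Cell Ranger 3.1.0, per the file headers, against mm10, per the submitters' processing notes, with samples of a source in 1 matrix. The 4626 native and 4611 allograft barcodes held 31415458 and 26503045 UMIs. Barcodes with at least 500 genes and at most 20% mitochondrial UMIs were kept (4156 native, 3895 allograft and 4579 spleen cells). Within each tissue, T cells were those with at least 3 UMIs of Cd3d, Cd3e and Cd3g and fewer than 3 of C1q. UMIs were summed over a set of cells and divided by its total to give CPM. Ratios had 0.5 UMI added to each sum, exact conditional 95% intervals came from the binomial distribution, and 2-fold was the mark for a difference. Genes with at least 10 expected UMIs in the smaller set were compared. The calculation was tested on simulated data, where intervals held the true ratio for 93.5 to 96.5% of 200 changed genes in each comparison. The simulated sums had counting error only and no spread between cells, so this checks the formula and not that spread. The ranking was by ratio among genes at 50 CPM or more in the higher set with no more than 50% of UMIs from 1 cell: the 12 highest and 12 lowest, up to 4 per gene list, the genes of the rule and markers of other cells could be named. Any other gene named for a list was chosen after its values were seen. The cells, the gene lists and the comparisons were chosen with earlier results of these data known. Scrublet in scanpy 1.11.5 marked 8 native (0.192%) and 36 allograft cells (0.924%), against 3.32% and 3.12% expected from loading, so it did not work on the native library; doublets were kept, and removing them is among the alternatives, as are other cell filters, thresholds, genes of the rule, scalings and depths. Lists of 34 gene groups were used. The analysis ran in Python 3.11.15 with numpy 2.4.6, scipy 1.17.1 and pandas 2.3.3. Clec7a and Siglec5 are not in the gene table. Promoters came from a RefSeq table (GRCm38.p6), and gene positions from GENCODE M21. Some results are not reported here.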

Additional observations from a re-analysis of the deposited data

Results flagged for a closer look

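Cells outside the tracheal comparisons met parts of the rule. In spleen, 26 of 163 C1q-positive cells passed it, but in 21 of them Fcna was the one gene of the set detected, and Fcna gave 109 of the set's 121 UMIs. In native trachea, 56 cells had 3 or more UMIs of the Lyve1 set and fewer than 3 of C1q, at a median of 11249.5 UMIs. Cd163 gave 217 UMIs in 49 of them, Lyve1 50 UMIs in 8, and the lymphatic endothelial genes Mmrn1 and Flt4 were detected in 3 and 4 cells. The allograft held 2 such cells.

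Some genes lay in opposite directions in 2 contrasts. None of these differences was tested, and the contrasts share sets of cells. Between Lyve1-set and other C1q-positive cells, the mitotic kinase gene Cdk1 had a log2 difference of -1.28 in native trachea and 1.34 in the allograft, Prg4 3.72 and -3.44, and Saa3 4.67 and -2.48. Between allograft and native, Ccdc80, a secreted matrix-binding protein, had -1.22 in Lyve1-set and 1.32 in other C1q-positive cells. The eosinophil-associated ribonuclease Ear2 had 1.58 and -1.02, and the interleukin-7 receptor Il7r 1.93 and -1.02. In the same order Prg4 had -3.65 and 3.52, and Saa3 -3.18 and 3.97. Complement C2 was at least 6.25-fold lower in allograft Lyve1-set cells and had a log2 difference of 2.49 in the other C1q-positive cells. For Prg4 and Saa3, the native Lyve1-set values rest on 15 cells.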

How the results depend on the processing

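No paired analysis was possible because the barcodes of each pooled matrix cannot be assigned to the 4 samples, and no replicate could be left out. Of 1639 list medians recomputed, 115 changed sign, 5 of them from a median at least 1 from 0 on the log2 scale. Of 7368 gene values, 86 changed sign, 29 of them from a difference of at least 2-fold. Between tissues, another scaling moved the median of all genes by -0.16 in other C1q-positive cells. The median of the resident genes outside the rule ran from 1.24 to 2.25 (native Lyve1-set against other cells), from -1.45 to -0.53 (allograft against native) and from 0.91 to 1.65 (within the allograft). The cause of the changes below was not tested; thinned cells, stricter thresholds and removed cells leave fewer UMIs and so fewer genes to compare.

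Cell numbers were 781 native and 26 allograft with Lyve1 and Cd163 alone, 36 allograft at a sum of 10, 121 allograft at a sum of 5, 45 allograft without Folr2, 765 and 74 after thinning, and 442 and 96 with cells carrying other types' markers removed. Genes at least 2-fold higher and lower, in allograft against native cells (401 and 646 as reported), were 74 and 171 with Lyve1 and Cd163 alone, 102 and 289 at a sum of 10, 102 and 219 without Folr2, 52 and 101 after thinning, 204 and 253 with marked cells removed, 728 and 1238 with 3 expected UMIs, and 185 and 344 with 30. Within the allograft (118 and 354), they were 71 and 129 after thinning, 74 and 149 with marked cells removed, 335 and 814 with 3 and 37 and 143 with 30 expected UMIs. There, 182 were lower with Lyve1 and Cd163 alone, and 76 higher at a sum of 10. Within native trachea (769 and 1032) they were 392 and 354 after thinning and 433 and 213 with marked cells removed; 502 were higher with Lyve1 and Cd163 alone, and 1764 and 559 lower with 3 and 30 expected UMIs.

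The scar-associated median between tissues (1.50) over 17 genes was -0.49 over 9 genes with Lyve1 and Cd163 alone, -0.25 over 10 genes without Folr2 and -0.11 over 7 genes after thinning; under the reported rule the same genes had medians of 0.37, 0.57 and 0.26 (a comparison chosen after seeing the data). The monocyte median within the allograft (-1.002) was 0.061 with Lyve1 and Cd163 alone and 0.26 after thinning. The set's ratio between tertiles (-0.58) was -0.64 without the cells carrying Prg4, Saa3 and Alox15 (an alternative chosen after seeing the data) and -0.47 after thinning; with tertiles by the set's share, the class II ratio was -1.08.

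Native log2 differences changed sign as follows. With Lyve1 and Cd163 alone, Apoc1 was -2.66, Cd5l -2.14, Prg4 -1.80 and Saa3 -1.55. At a sum of 10, Apoc1 was -2.79, Prg4 -0.27 and Saa3 -0.29. Without Fcna, Apoc1 was -3.52, Cd5l -2.99, Prg4 -2.73 and Saa3 -2.52. After thinning, Prg4 was -2.43, Saa3 -1.68 and Tg 0.88. Tg was 1.39 under the stricter cell filter, and 5.29 at a sum of 2. With marked cells removed, Bpifa1 was 0.33, Col1a2 0.82, Scgb1a1 0.50, Sparc 0.19, Tg 0.91 and Vegfa 0.13. Within the allograft, Ctsk was 1.17 at a sum of 2, Cxcl13 -3.24 at a sum of 5, Sparc 0.47 after thinning, and Mgp 0.96 and Sparc 0.99 with marked cells removed. Between tissues, Cd163 was 0.11 with Lyve1 and Cd163 alone.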
